A study of Homo sapiens with 2 samples.

Results

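Histone and DNA modifying enzymes were examined in HepG2 cells, a human liver cancer line derived from a hepatoblastoma, after an siRNA against SPRTN. The members were chosen by gene name: the KMT, SETD, SETDB and EZH lysine methyltransferases, the KAT acetyltransferases, the PRMT arginine methyltransferases, the DNMT DNA methyltransferases, the KDM lysine demethylases, the HDAC and SIRT deacetylases and the TET dioxygenases. The names matched 78 of the 60448 genes in the deposited table, 38 of them writers and 40 erasers. Of these, 71 had a mean level of at least 1 FPKM, a read level divided by gene length and by library depth, and are called measured, 35 writers and 36 erasers.

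Writers place chemical groups on histone tails or on cytosines, erasers take them off, and the balance of both sets how tightly a stretch of chromatin is packed and whether its genes can be read. Lysine methylation has separate writers and erasers for each residue, so H3K4 methylation marks active promoters and enhancers, H3K27 methylation marks genes silenced by Polycomb, and H3K9 methylation marks heterochromatin. Acetylation neutralises the charge of lysines and is removed by zinc-dependent HDACs and NAD-dependent sirtuins, and cytosine methylation is copied at each replication round and oxidised by TET enzymes.

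SPRTN is a protease that cleaves proteins crosslinked to DNA. The control cells received a negative control siRNA and the others an siRNA against SPRTN, each at 40 nM with the transfection mix left on for 24 h, and RNA was taken at 72 h in all. There is 1 library per group, about 96400000 assigned reads in the control and about 67100000 in the SPRTN siRNA library, so none of the differences could be checked against replicates. Intervals are exact, at 95%, for how the reads of a gene divide between both libraries, and they cover counting error only. In bulk RNA, fewer cells that express a gene and less RNA per cell cannot be told apart. SPRTN itself was at 7.81 FPKM with the control siRNA and 2.07 FPKM with the SPRTN siRNA, 3.77-fold lower (3.29 to 4.33).

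The labelled cell type was checked against markers. Albumin (ALB) was at 9997 and 16435 FPKM and alpha-fetoprotein (AFP) at 13035 and 15418 FPKM in the control and SPRTN siRNA libraries. The 9 hepatocyte markers had a median log2 ratio of 0.26, with 6 above 0. HNF4A (-0.15), APOB (-0.02) and TF (-0.002) lay below 0. Of 6 endothelial markers 3 were measured, with TEK at 0 in both libraries and a summed level of 4.91 and 7.11 FPKM. Among them CDH5 was at 0.439 and 2.74 FPKM (6.23-fold higher, 4.97 to 7.95), TIE1 at 1.84 and 1.07 FPKM and PECAM1 at 2.47 and 2.92 FPKM. Of 6 fibroblast markers 2 were measured, with COL3A1 and DCN at 0 in both and a summed level of 9.96 and 9.61 FPKM. PDGFRB, at 8.15 and 8.49 FPKM, made up most of that sum, and COL1A1 was at 1.80 and 1.02 FPKM. Of 6 blood markers 2 were measured, with PTPRC and HBB at 0 in both; lysozyme (LYZ), at 1368 and 1294 FPKM, made up nearly all of their sum of 1372 and 1299 FPKM.

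Most enzymes of both kinds were slightly lower in the SPRTN siRNA library, and none moved far. Differences are given as log2(FPKM + 1) with the SPRTN siRNA minus that with the control siRNA, and the 71 measured members ranged from -0.97 to 0.45. The median was -0.15, against -0.05 over all 13203 measured genes and -0.06 over the protein-coding ones. Below 0 lay 50 of the 71 members (70.4%), against 56.6% of all measured genes. Both shares depend on how the libraries are scaled, since the median of all measured genes itself lay below 0. No member was at least 2-fold lower on this scale, where 0.788% of all genes were, and none was at least 2-fold higher, where 1.51% were. At a smaller step of 0.5, 7 members were lower (9.86%, near the 8.6% of all genes) and 0 were higher (7.05% of all genes). The counting interval lay below equality for 42 members (59.2%, against 44.3% of all genes) and above it for 11 (15.5%, against 31.5%). Members were read more deeply than most genes, with a median of 4293 reads in the control against 2492 for all measured genes, and such intervals are narrower.

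**Figure D1:**
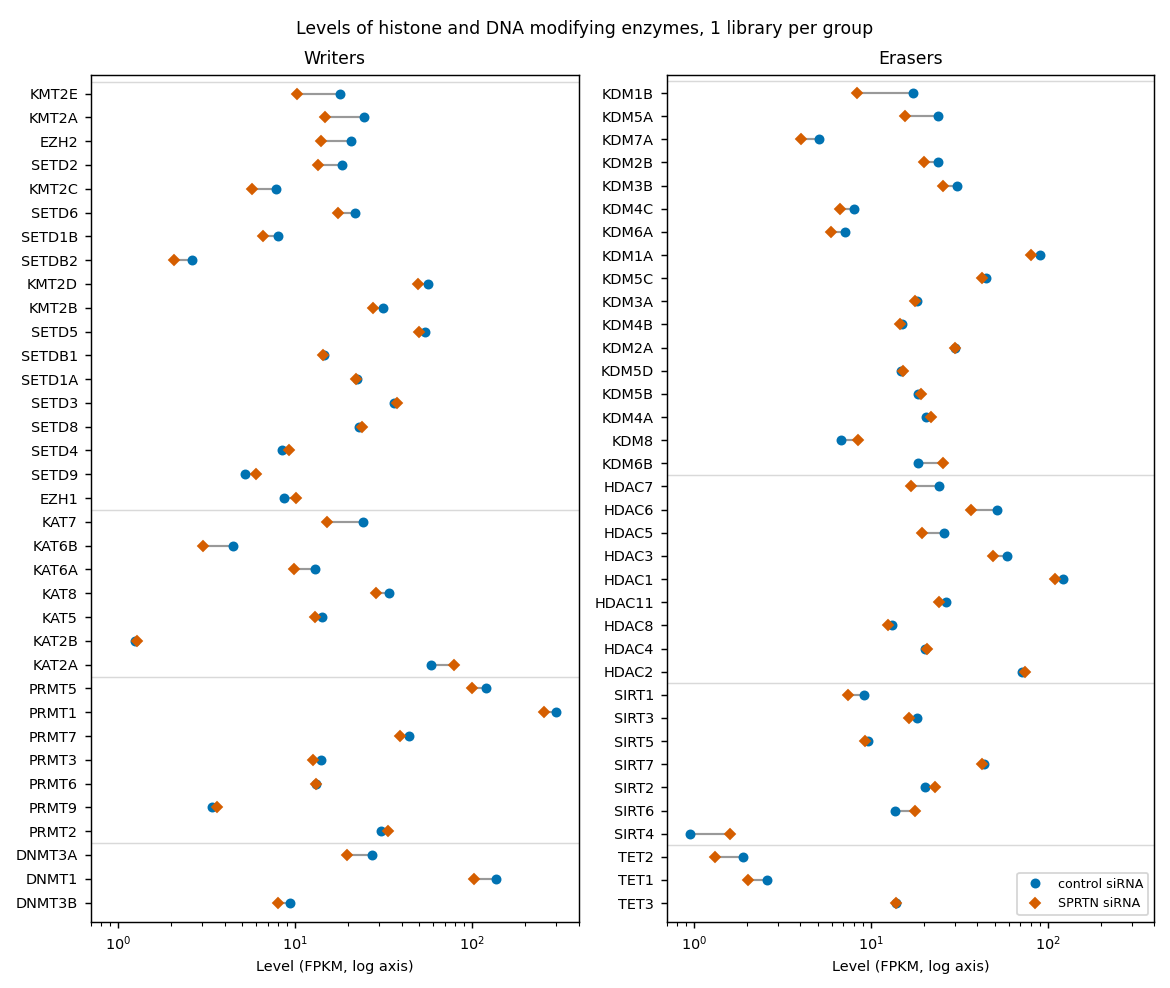
Level of each measured enzyme in FPKM on a log axis, with circles for the control siRNA library and diamonds for the SPRTN siRNA library, 1 library each, writers at left and erasers at right, grouped by class and ordered by log2 ratio. Levels span from about 1 FPKM to 299 FPKM for PRMT1, and most diamonds sit close to and slightly left of their circles.

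Writers and erasers lay close together. The 35 measured writers had a median log2 ratio of -0.19, with 26 below 0 and 9 above. The 36 measured erasers had a median of -0.11, with 24 below 0 and 12 above. With other scalings of the libraries (median-of-ratios size factors, or centring on the median gene), the writers' median was -0.13 and -0.14. The erasers' median was -0.05 under both. Those scalings also moved the medians of the lysine methyltransferases from -0.18 to -0.12 and -0.13, and of the acetyltransferases from -0.23 to -0.17 and -0.18. The arginine methyltransferases went from -0.12 to -0.07, the DNA methyltransferases from -0.41 to -0.35 and the lysine demethylases from -0.08 to -0.02 and -0.03. The HDACs went from -0.15 to -0.09 and the TET enzymes from -0.25 to -0.21 and -0.20. The writers' median was 0.08 lower, which is the difference -0.08 of the medians of genes that share the same 2 libraries, and it has no test. The interquartile range was -0.38 to 0.01 for writers and -0.25 to 0.02 for erasers, so the ranges overlap over most of their width. On this scale the lowest member, KDM1B, and the highest, KDM6B, were both erasers. In summed level, writers went from 1230 to 1071 FPKM (ratio 0.871) and erasers from 940 to 860 FPKM (ratio 0.915), and PRMT1 alone gave 299 and 254 FPKM of the writers' sums.

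**Figure D2:**
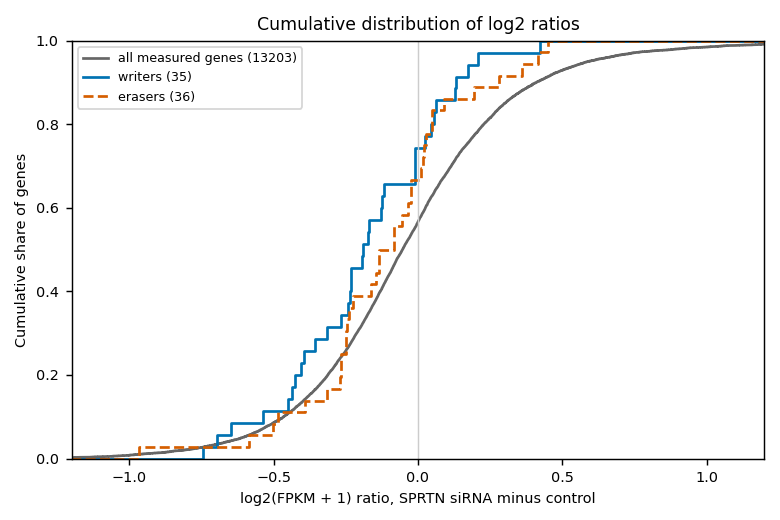
Cumulative share of genes (y) at or below each log2(FPKM + 1) ratio of SPRTN siRNA minus control (x) for all 13203 measured genes, 35 writers and 36 erasers. Both enzyme curves run left of the curve of all genes around 0 (medians -0.19, -0.11 and -0.05) and reach 1 below a ratio of 0.5, where all genes have a longer right tail.

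Lysine methyltransferases, 18 measured of 19, had a median log2 ratio of -0.18, with 13 below 0 (11 under both other scalings) and levels from 2.60 to 56.3 FPKM in the control. KMT2E, a SET-domain relative of the MLL proteins with no established histone methyltransferase activity, was lowest, at 17.9 FPKM with the control siRNA and 10.3 FPKM with the SPRTN siRNA. That is 1.74-fold lower (1.64 to 1.85), a log2(FPKM + 1) ratio of -0.74, from 3622 and 1448 reads. KMT2A, the MLL1 enzyme that methylates H3K4 at promoters, was at 24.5 FPKM with the control siRNA and 14.7 FPKM with the SPRTN siRNA, 1.66-fold lower (1.60 to 1.73). The other H3K4 writers of its family lay nearer to 0, with log2 ratios of -0.39 for KMT2C, -0.19 for KMT2D and -0.17 for KMT2B, while SETD1A was at -0.01 and SETD1B at -0.24. SETD2, the enzyme of H3K36 trimethylation on transcribed genes, had a log2 ratio of -0.42 (18.4 and 13.4 FPKM).

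EZH2 and EZH1 differed in direction. Both are catalytic subunits of Polycomb repressive complex 2, which methylates H3K27, and EZH2 is the form of dividing cells. EZH2 was at 20.8 FPKM with the control siRNA and 14.0 FPKM with the SPRTN siRNA, 1.48-fold lower (1.41 to 1.56). EZH1 was at 8.63 FPKM with the control siRNA and 10.1 FPKM with the SPRTN siRNA, 1.17-fold higher (1.08 to 1.27). The ratio of EZH2 to EZH1 was therefore 2.41 in the control and 1.38 in the SPRTN siRNA library, a log2 change of -0.80 (-0.94 to -0.66). SETD9 was the other member farthest above 0 in this class, at 5.20 and 5.997 FPKM, and its interval for the ratio (0.991 to 1.34) included equality. SETD8, the H4K20 monomethyltransferase now named KMT5A, had a log2 ratio of 0.05 and SETDB1, the H3K9 methyltransferase that silences retroelements, -0.01.

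Acetyltransferases split, with 5 of 7 below 0 and a median of -0.23. KAT7 (HBO1), which acetylates histones H3 and H4 and takes part in replication origin licensing, was lowest, at 24.3 FPKM with the control siRNA and 15.1 FPKM with the SPRTN siRNA. It was 1.61-fold lower (1.52 to 1.70). KAT6B (MORF) was at 4.46 and 3.03 FPKM (log2 ratio -0.44) and its paralog KAT6A (MOZ) had a log2 ratio of -0.36. KAT2A (GCN5), the acetyltransferase of the SAGA coactivator, went the other way, with 58.7 FPKM with the control siRNA and 79.1 FPKM with the SPRTN siRNA, 1.35-fold higher (1.31 to 1.39). Its paralog KAT2B (PCAF) was near the floor at 1.25 and 1.29 FPKM, so KAT2A was 47.1 times as abundant in the control. KAT2A offset the others in the summed level, which was 149.7 FPKM with the control siRNA and 149.9 FPKM with the SPRTN siRNA.

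Arginine methyltransferases were the steadiest writers, with log2 ratios from -0.27 to 0.13 over 7 measured genes and a median of -0.12. PRMT5, which makes symmetric dimethylarginine, was lowest, at 120.7 FPKM with the control siRNA and 100.2 FPKM with the SPRTN siRNA (1.204-fold lower, 1.17 to 1.24). PRMT1, the main source of asymmetric dimethylarginine and the most abundant of all members, was at 299 FPKM with the control siRNA and 254 FPKM with the SPRTN siRNA (1.18-fold lower, 1.15 to 1.202). PRMT2 was highest, at 30.6 and 33.6 FPKM (log2 ratio 0.13), next to PRMT9, which methylates the splicing factor SF3B2, at 3.41 and 3.61 FPKM (0.06).

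All 3 measured DNA methyltransferases were lower in the SPRTN siRNA library, each with a counting interval below equality. DNMT1, which copies methylation to the new strand after replication, was at 136.2 FPKM with the control siRNA and 102.6 FPKM with the SPRTN siRNA, 1.33-fold lower (1.29 to 1.36). DNMT3A, a de novo enzyme, was at 27.3 FPKM with the control siRNA and 19.7 FPKM with the SPRTN siRNA, 1.38-fold lower (1.32 to 1.45). DNMT3B, the other de novo enzyme, was closer to 0, at 9.31 and 8.02 FPKM (log2 ratio -0.19). UHRF1, which brings DNMT1 to replicated DNA and is no member, was at 67.6 FPKM with the control siRNA and 35.5 FPKM with the SPRTN siRNA, a log2 ratio of -0.91.

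Proliferation markers moved with these differences. All 8 of MKI67, PCNA, TOP2A, CCNB1, CCNA2, MCM2, MCM5 and CDK1 had log2 ratios below 0, from -1.004 (TOP2A) to -0.44 (PCNA) with a median of -0.72, and their summed level was 1102 FPKM with the control siRNA and 683 FPKM with the SPRTN siRNA. Their part in the lower levels of EZH2, DNMT1 and the other writers was not tested.

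**Figure D3:**
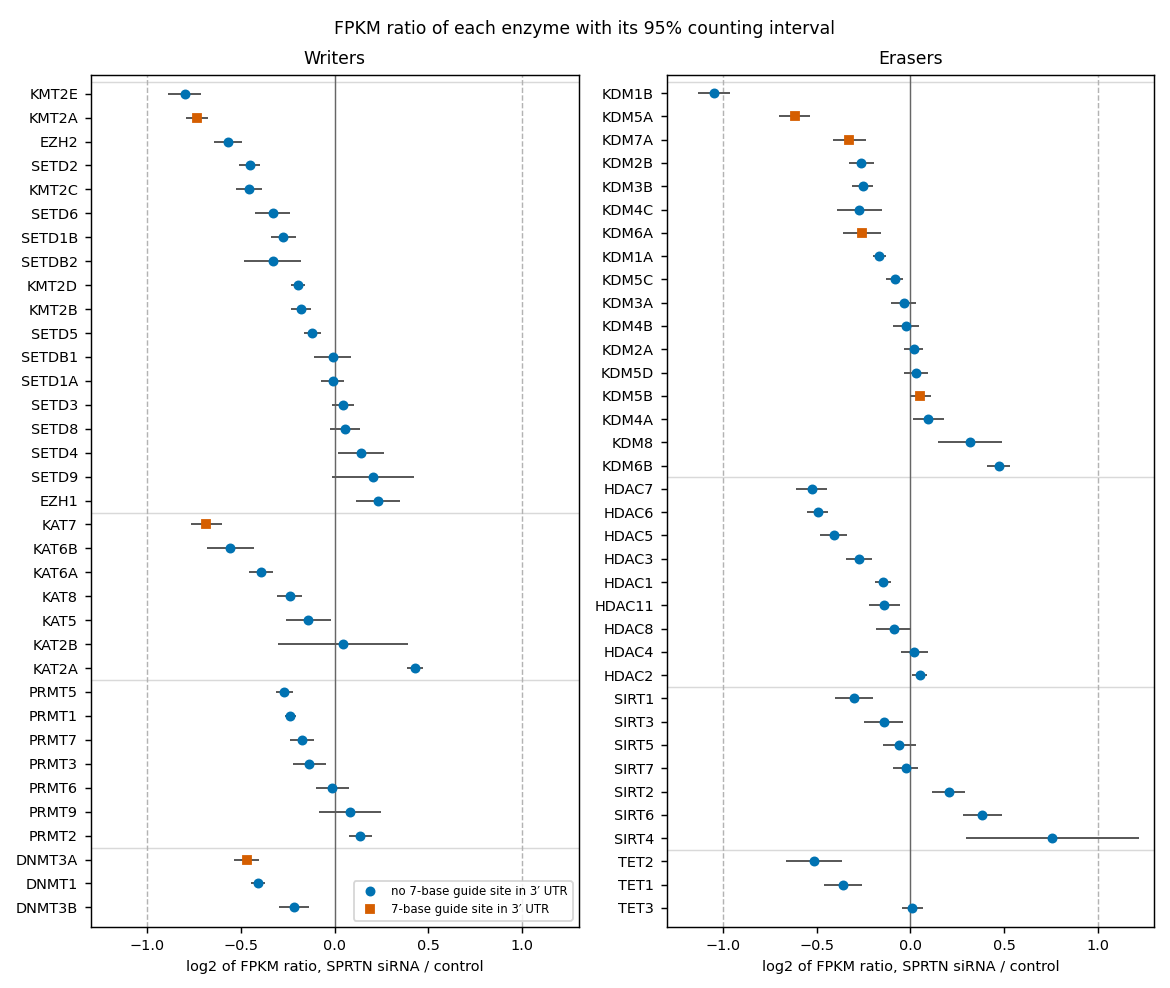
Log2 of the plain FPKM ratio of SPRTN siRNA to control for each measured enzyme, with bars for the exact 95% counting interval of 1 library against 1 library and dashed lines at 2-fold. Squares hold the 7-base match to the siRNA guide in a 3′ UTR, circles do not. KDM1B is the only point past a dashed line, and KDM6B, KAT2A and SIRT4 are the farthest to the right.

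Among lysine demethylases, 17 measured of 19 with a median of -0.08 and 11 below 0 (9 under both other scalings), the leading difference was that of KDM1B. KDM1B (ENSG00000165097, chromosome 6, 18155329 to 18223853 on the plus strand of GRCh38) is a flavin-dependent demethylase of mono- and dimethylated H3K4. It was at 17.3 FPKM with the control siRNA and 8.37 FPKM with the SPRTN siRNA, from 4439 and 1493 reads. The plain ratio was 2.07-fold lower (1.95 to 2.19), where 1.92% of measured genes were at least 2-fold lower, and the log2(FPKM + 1) ratio was -0.97. Its paralog KDM1A (LSD1), the demethylase of the CoREST complex, was far more abundant and nearer to 0, at 89.9 FPKM with the control siRNA and 80.2 FPKM with the SPRTN siRNA. KDM1B was at 0.193 of the KDM1A level in the control and 0.104 in the SPRTN siRNA library.

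The KDM5 enzymes, which remove trimethylation of H3K4, did not move together. KDM5A was at 23.9 FPKM with the control siRNA and 15.6 FPKM with the SPRTN siRNA, 1.53-fold lower (1.45 to 1.62). KDM5B, KDM5C and KDM5D had log2 ratios of 0.05, -0.08 and 0.03. KDM5C and KDM5D are close homologs, as are KDM6A and UTY, and the sources used here do not give how reads that match both were counted, so their values are uncertain. KDM5A stood above KDM5B in the control (ratio 1.299) and below it in the SPRTN siRNA library (0.817).

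The H3K27 demethylases also parted. KDM6B (JMJD3), a stress- and signal-induced enzyme, was at 18.4 FPKM with the control siRNA and 25.5 FPKM with the SPRTN siRNA, 1.39-fold higher (1.33 to 1.45). Its log2(FPKM + 1) ratio of 0.45 was the highest of the measured members, while SIRT4 was higher by the plain ratio and with a pseudocount of 0.1 FPKM (0.70 against 0.47). KDM6A (UTX) was at 7.15 and 5.97 FPKM (log2 ratio -0.22). Set against the writer of the same mark, EZH2 was at 1.13 times the level of KDM6B in the control and 0.548 times in the SPRTN siRNA library. KDM8 was second highest in the class, at 6.78 and 8.45 FPKM (log2 ratio 0.28). The demethylases of H3K9 and H3K36 lay near 0 or a little below it, with -0.25 for KDM3B and KDM2B, -0.24 for KDM4C, -0.03 for KDM3A, -0.02 for KDM4B, 0.02 for KDM2A and 0.09 for KDM4A. KDM7A, a demethylase of H3K9 and H3K27, was at -0.27.

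Of the HDACs, 9 of 11 were measured, with a median of -0.15 and 7 below 0. HDAC7, a class IIa enzyme that acts mostly as a corepressor scaffold, was lowest, at 24.3 FPKM with the control siRNA and 16.8 FPKM with the SPRTN siRNA, 1.44-fold lower (1.36 to 1.52). HDAC6, the cytoplasmic tubulin deacetylase, was at 51.9 FPKM with the control siRNA and 36.8 FPKM with the SPRTN siRNA, 1.41-fold lower (1.36 to 1.46). HDAC5 was next at -0.39, while HDAC4, of the same class as HDAC5 and HDAC7, was at 20.3 and 20.6 FPKM (0.02). HDAC1 and HDAC2, the catalytic subunits of the Sin3, NuRD and CoREST complexes, were at log2 ratios of -0.15 and 0.05 (71.7 and 74.2 FPKM for HDAC2). The other class I enzymes, HDAC3 and HDAC8, were at -0.27 and -0.08, and HDAC11 was at -0.13.

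Sirtuins were the class nearest to balance, with 4 of 7 below 0 and a median of -0.03 that changed sign under other scalings of the libraries (0.03 with median-of-ratios size factors). SIRT1, the nuclear enzyme that deacetylates p53 and histones, was lowest, at 9.20 FPKM with the control siRNA and 7.47 FPKM with the SPRTN siRNA (1.23-fold lower, 1.15 to 1.32). SIRT3, the main mitochondrial deacetylase, was at 18.2 and 16.5 FPKM (log2 ratio -0.13). SIRT6, a chromatin deacetylase of H3K9, went the other way, at 13.6 FPKM with the control siRNA and 17.8 FPKM with the SPRTN siRNA (1.304-fold higher, 1.21 to 1.40). SIRT4, another mitochondrial enzyme, had 0.952 FPKM with the control siRNA and 1.61 FPKM with the SPRTN siRNA from 75 and 88 reads, and its interval is wide (1.23- to 2.33-fold higher).

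TET enzymes, which oxidise methylated cytosine, were low except TET3. TET2 was at 1.88 FPKM with the control siRNA and 1.32 FPKM with the SPRTN siRNA (1.43-fold lower, 1.29 to 1.59). TET1 was at 2.59 FPKM with the control siRNA and 2.02 FPKM with the SPRTN siRNA (1.28-fold lower, 1.198 to 1.38). TET3, at 13.8 and 13.9 FPKM, did not differ beyond counting error (ratio 0.969 to 1.05), and its ratio to TET2 went from 7.33 in the control to 10.6 in the SPRTN siRNA library.

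Set side by side for each mark, both sides of most pairs were lower or near 0. The 6 measured H3K4 writers had a median log2 ratio of -0.22 and the 6 erasers -0.12, with summed levels of 150.3 and 126.1 FPKM for writers and 209 and 181 FPKM for erasers in the control and SPRTN siRNA libraries. For H3K27 the writers EZH1 and EZH2 summed to 29.4 and 24.1 FPKM and the erasers KDM6A and KDM6B to 25.6 and 31.5 FPKM. KDM7A, at 5.06 and 4.03 FPKM, was left out of the eraser lists of both H3K9 and H3K27. Which side had the larger H3K27 sum in the control therefore depends on the list. For cytosine methylation the measured writers summed to 172.8 and 130.3 FPKM and the erasers to 18.3 and 17.2 FPKM. Acetyltransferases had a median of -0.18 over 8 genes (KAT14, listed under the older name CSRP2BP, included), against -0.23 over the 7 members. Left out of it were EP300, CREBBP and HAT1 at -0.48, -0.34 and -0.45, and ELP3, NCOA1 and TAF1 at -0.25, -0.39 and -0.40. Also left out were NAA60 and NCOA3, at 0.16 and 0.03. The 8 nuclear or histone-directed deacetylases had a median of -0.05, a sign that turned under both other scalings (0.00). The medians of the H3K9 erasers (-0.03) and of the H3K36 erasers (-0.02) turned as well, to 0.02 and 0.03, whereas SETD2, the H3K36 writer here, stayed below 0 at -0.37.

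**Figure D4:**
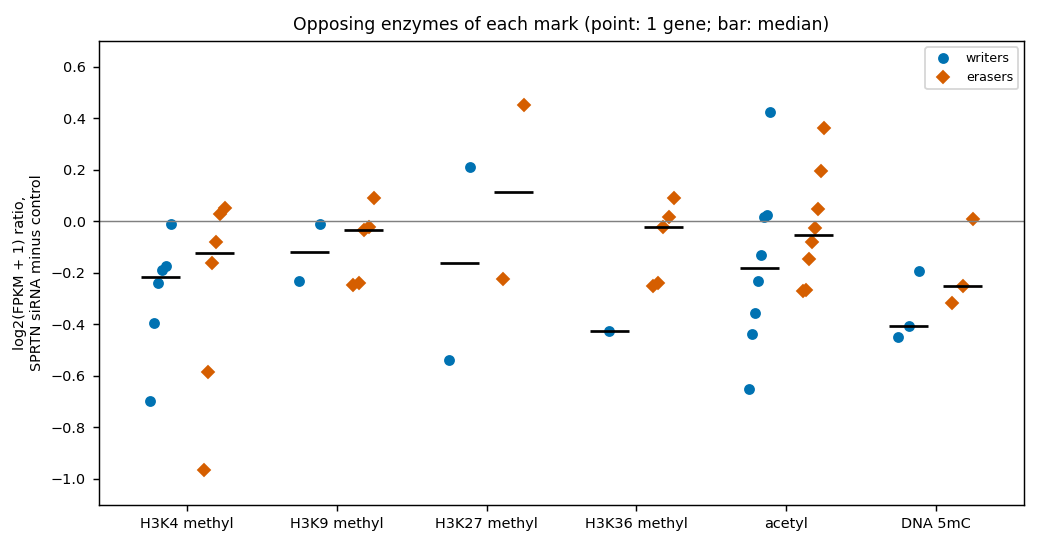
Log2(FPKM + 1) ratio of SPRTN siRNA minus control (y) for the measured writers (circles) and erasers (diamonds) of 6 marks (x), 1 point per gene and a bar at the median. The H3K27 erasers drawn, KDM6A at -0.22 and KDM6B at 0.45, are the only group with a median above 0. KDM7A, a demethylase of H3K9 and H3K27 at -0.27, is not drawn.

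The siRNA's own sequence was compared with the members, since the guide strand of an siRNA can lower transcripts that pair only with its seed, bases 2 to 8, through their 3′ UTR. The strands below are read from the submitters' design text, the guide as the reverse complement of the sense strand with its seed in capitals. The sites are from GENCODE transcripts on GRCh38, 12 bases before and 5 after the match where the UTR reaches that far, and capitals mark the 7-base match CTGGTTA or the 8-base match CTGGTTAA. They are shown because 3 of the 7 members lower by at least 0.5 hold one (42.9%), where 29.6% of the 938 measured protein-coding genes that low do.
Sense strand: GUCAGGAAGUUCUGGUUAA
Guide strand: uUAACCAGaacuuccugac
SPRTN, chr1:231353421-231353444, plus strand: agtcaggaagttCTGGTTAAtact
KMT2A, chr11:118526557-118526580, plus strand: tcttccaagcttCTGGTTAgagaa
KAT7, chr17:49828356-49828379, plus strand: gctgcatattaaCTGGTTAAttat
KDM5A, chr12:285155-285178, minus strand: gctctagggtggCTGGTTAgtatt
DNMT3A, chr2:25232784-25232807, minus strand: attcttatggttCTGGTTAtaatt
KDM7A, chr7:140089740-140089763, minus strand: gaggttaagtatCTGGTTAAactt
KDM5B, chr1:202725732-202725755, minus strand: attaagccagagCTGGTTAttcat

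The 7-base site was held by 7 of the 71 measured members (9.86%), against 10.5% of 11134 measured protein-coding genes with a 3′ UTR. The 7 members had a median log2 ratio of -0.45 and 6 of them lay below 0, and the 64 without the site had a median of -0.13. Over all those protein-coding genes the medians were -0.23 with and -0.05 without the site. KMT2A, KAT7 and KDM5A are the 3 holders at -0.5 or less. DNMT3A (-0.45) and KDM7A (-0.27) hold it too, while KDM5B holds it in 3 of its 13 annotated 3′ UTRs and was at 0.05. The KMT2A site lies in 1 of 5 annotated 3′ UTRs and the FPKM sums over all transcripts. Pairing with the guide ran from base 2 to base 11 in DNMT3A, to base 10 in KMT2A, to base 9 in KDM7A and to base 8 in KAT7, KDM5A and KDM5B.

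KDM1B, KMT2E, EZH2 and HDAC7, the other members lower by at least 0.5, have neither match in an annotated 3′ UTR. The 3′ UTR of KDM1B holds the sequence TGGTTAA, which pairs with guide bases 1 to 7, while KMT2E, EZH2 and HDAC7 do not hold it. That sequence is found in 15.5% of measured members and 13.9% of the protein-coding genes. Median log2 ratios with and without it were -0.25 and -0.13 in members and -0.23 and -0.04 in the protein-coding genes. Without the 7 members that carry the 7-base site, the medians of writers and erasers were -0.17 and -0.08. The part of the guide in these differences was not tested.

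Promoters were searched for the core of the E2F site, since E2F factors drive genes of DNA replication. The search used the words TTTCCCGC, TTTCGCGC, TTTGCCGC and TTTGGCGC on both strands of 300 bases (250 before to 50 after the start, RefSeq, GRCh38.p14), and 71 of the 78 members had a promoter in the table. A word was found in 5 of 66 measured members with a promoter (7.58%), against 5.62% of 9134 measured protein-coding genes and 3.33% of all 27305 promoters. The windows below, with the word in capitals on the strand of the gene, show that the matches fall on enzymes of both directions.
KDM1B, chr6:18155177-18155206, plus strand: cgccccgcctcTTTCCCGCgccccgcctct
EZH2, chr7:148884272-148884301, minus strand: gggctgccgcgTTTGGCGCtcggtccggtc
DNMT1, chr19:10194937-10194966, minus strand: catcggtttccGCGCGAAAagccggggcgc
EZH1, chr17:42745137-42745166, minus strand: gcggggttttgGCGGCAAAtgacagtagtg
SIRT6, chr19:4182770-4182799, minus strand: ggccgccccaaTTTCCCGCccgggtcatcg

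KDM1B (log2 ratio -0.97), EZH2 (-0.54) and DNMT1 (-0.41) were lower and EZH1 (0.21) and SIRT6 (0.36) higher in the SPRTN siRNA library. A match describes these letters only and no binding was measured.

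Length and the log2 ratio were set side by side. Across the 71 measured members the Spearman correlation of the log2 ratio was -0.31 with mean transcript length, -0.35 with the number of exons and 0.23 with the GC percent of the transcripts. The same values over 11172 measured protein-coding genes were -0.18, -0.15 and 0.26. Genes are not independent replicates, and all points come from the same 2 libraries. With length the correlation was -0.38 in writers and -0.19 in erasers. Writers above their own median length had a median log2 ratio of -0.24 and the others -0.06, while in erasers these were -0.12 and -0.11. The difference between writers and erasers in this was not tested.

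**Figure D5:**
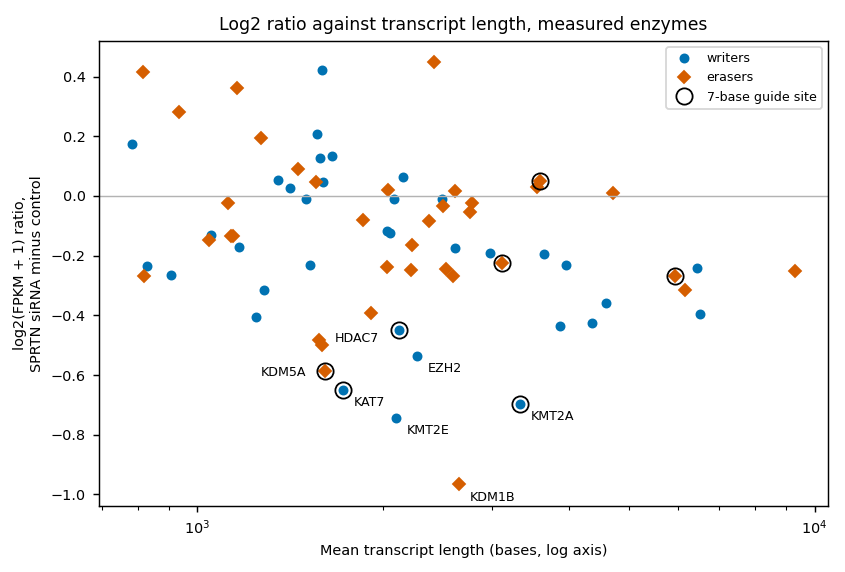
Log2(FPKM + 1) ratio of SPRTN siRNA minus control (y) against mean annotated transcript length in bases on a log axis (x) for the 71 measured enzymes, with the 7 members at -0.5 or less named and open rings around members with the 7-base guide site. The Spearman correlation is -0.31 over all points, and the 7 lowest span lengths from 1591 to 3329 bases.

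The partner lists had medians from -0.20 to -0.09, and 56.6% of all measured genes lay below 0. Of 9 subunits and cofactors of Polycomb repressive complex 2, 8 were below 0 (median -0.16), led by PHF19 at 43.6 FPKM with the control siRNA and 24.6 FPKM with the SPRTN siRNA (log2 ratio -0.80) and MTF2 (-0.53). Both recruit the complex to chromatin. The core subunits EED, SUZ12 and RBBP4 were at -0.08, -0.07 and -0.08, but RBBP7 was at -0.34. The cofactors PHF1, JARID2 and AEBP2 were at -0.27, -0.16 and 0.06. Of 9 subunits of the H3K4 methyltransferase complexes 8 were below 0 (median -0.09), with WDR82 at -0.33 and NCOA6 at -0.21, but 5 of 9 and a median of -0.03 with either other scaling. Of 19 subunits of deacetylase complexes 14 were below 0 (median -0.20), with SAP30 at -0.63 and SIN3A at -0.53, both of the Sin3 complex. SIN3B, the paralog of SIN3A, was higher, at 26.1 and 29.3 FPKM (0.16). Of 22 subunits of acetyltransferase complexes 18 were below 0 (median -0.16), with SGF29 of SAGA, listed as CCDC101, at -0.72 and MSL2 at -0.44. SGF29 and KAT2A, of the same complex, thus had opposite signs. Of 8 partners of DNA methylation and of its removal 7 were below 0 (median -0.17), with UHRF1 lowest and UHRF2 at -0.40. TDG, a glycosylase that removes oxidised methylcytosine, lay above 0, at 18.2 and 20.9 FPKM (0.19).

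Most enzymes of the same functions under other names were lower as well. Of 22 measured writers 18 were below 0 (81.8%, against 56.6% of all measured genes), with a median of -0.30. Under the other scalings 17 were below 0, with medians of -0.24 and -0.25. NSD2 (listed as WHSC1, an H3K36 methyltransferase) was at 56.1 FPKM with the control siRNA and 38.6 FPKM with the SPRTN siRNA (-0.53). DOT1L was the highest of the 4 above 0, at 59.0 and 70.3 FPKM (0.25). SUV39H1, an enzyme that trimethylates H3K9, was at -0.51. Of 7 measured erasers 6 were below 0, with a median of -0.19, and HR was at -0.32 and PHF8 at -0.27; with either other scaling 4 of the 7 were below 0. Together with the members, writers had a median of -0.23 and erasers -0.13. These writers do not include KMT5B (listed as SUV420H1), KMT5C (listed as SUV420H2) and KAT14, at -0.15, 0.17 and 0.02.

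The other 7 members had a mean below 1 FPKM. KDM4E and PRMT8 were listed at 0 FPKM in both libraries. KDM4D, whose 3′ UTR also holds the 7-base guide site, was at 0.610 and 0.487 FPKM and SETD7 at 0.523 and 0.839 FPKM. DNMT3L, the inactive cofactor of the de novo enzymes, had 9 reads in the control and 28 in the SPRTN siRNA library, and HDAC9 had 1 and 9. HDAC10 was at 0.707 and 1.27 FPKM, and 2763 bases of its exons overlap MAPK12 on the same strand (16.8 FPKM on average). The longest exon overlaps with a gene on the opposite strand concern SETD6 (1086 bases, CNOT1), SETDB1 (948 bases, CERS2) and KAT5 (1439 bases, RNASEH2C), and the sources used here do not give whether strand was used in counting, so these values are uncertain.

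Calls in the authors' deposited table cover 3 members, KDM1B lower and DNMT3L and HDAC9 higher. The authors' deposited table gives KDM1B a log2 fold change of -1.05 with an adjusted p of 9.52e-121, and 61 of 76 members an adjusted p below 0.05, as it does for 65.8% of all 25035 genes. For some members the deposited adjusted p is smaller than the deposited p-value itself, so that count is not a strict one. KDM5B has a deposited p-value of 0.104 and an adjusted p of 0.0441, and its counting interval for the ratio (0.998 to 1.08) included equality. The authors' deposited table calls 3.32% of 25035 genes lower and 9.2% higher, and those p-values compare 1 library with 1 library.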

How the data were processed

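Polyadenylated RNA of 2 libraries was measured, 1 per group, assigned to groups by the treatment label. The column whose name begins with si was matched to the sample titled as silenced and the remaining column to the control. The submitters' processing notes name the build GRCh38.p13 and the tool edgeR, without saying what it was used for. The sources used here give no aligner, counter or strand setting.

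The authors deposited FPKM per gene; the gene names come from their second table. That table also holds a coverage signal deposited by the authors, proportional to the FPKM in each library, and the authors' log2 fold change, p-value and adjusted p-value. The first table is titled as row means, without saying over what.

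From the FPKM, log2(FPKM + 1) was subtracted between libraries for genes with a mean of at least 1 FPKM. Reads were recovered as FPKM times mean GENCODE release 29 transcript length, divided by what 1 read adds to that product in the library. Among values of at most 20 reads, 93.9% (control) and 93.3% (SPRTN siRNA) lay within 0.05 of a whole number, and 94.1% of genes had a length. Intervals are Clopper-Pearson at 95% (scipy 1.17.1). Scripts were tested on simulated data.

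Named members are those at least 0.5 from 0, the 2 lowest and 2 highest per class of 4 or more, and all of smaller classes. From each list of partners the 2 farthest from 0 are named. Other genes were named, and the ratios between paralogs formed, after their values were seen. All members and lists were chosen with earlier results of these data known. No test across libraries is possible. Not every guide site is reported here.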

Additional observations from a re-analysis of the deposited data

How the results depend on the processing

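The writers' and erasers' medians and their difference kept their sign under every alternative tried, from -0.23 to -0.13 for writers, -0.13 to -0.05 for erasers and -0.11 to -0.08 for the difference. The writers' median of -0.19 was -0.13 with median-of-ratios size factors and -0.14 with centring on the median gene. The erasers' median of -0.11 was -0.05 under both other scalings. The count of members at least 2-fold lower went from 0 to 1 (KDM1B) with a pseudocount of 0.1 FPKM and with recovered reads. Over all genes that count went from 104 of 13203 to 230 of 13203 and 244 of 13102. The count at least 0.5 higher went from 0 to 1 with a pseudocount of 0.1 FPKM and with recovered reads (SIRT4). It also went to 1 with median-of-ratios size factors and with centring on the median gene (KDM6B). Of all genes 7.05% were that high as reported, and 9.57%, 9.82%, 8.61% and 8.72% under these 4 settings in turn. The count at least 0.5 lower was 7, and 4 without members that hold the guide site. It was 5 under both other scalings, where EZH2 and HDAC7 left it, 8 with a pseudocount of 0.1 FPKM and 9 with recovered reads. Of all genes 8.6% were that low as reported, 6.52% and 6.54% under the 2 scalings, 11.3% with that pseudocount and 11.6% with recovered reads. The median of all measured genes was -0.05 and both scalings set it to about 0. No paired analysis was possible because each group has 1 library, and no library could be left out. Depth limits SIRT4, KAT2B and the members below the level cut.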
